A study of Mus musculus with 12 samples.

Results

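The collagen genes of term fetal mouse liver were compared between Ppara-/- and Ppara+/+ animals. They were taken by symbol, as every gene named Col, a number, the letter a and a second number, among probesets with a single gene symbol, and where a gene had several probesets the brightest on average stood for it. This gave 44 collagen genes of 19938 genes in all. The 44 genes came from 46 probesets, with 2 each for Col6a5 and Col6a6, and they covered all 44 protein-coding collagen symbols of the RefSeq gene table. Measured levels played no part in choosing them.

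Whole livers came from fetuses of embryonic day E19.5, delivered by cesarean section on the last day of pregnancy, with 6 livers from Ppara-/- and 6 from Ppara+/+ fetuses and 1 Affymetrix Mouse Gene 1.0 ST array for each. Ppara encodes PPARα, a nuclear receptor that fatty acids activate, and the series asks which genes depend on it in the liver before birth. The parents were heterozygous for the null allele, so both genotypes could be born to one mother, and the gene was disrupted in the whole body rather than in one cell type. The labels give the strain as SV129, whereas the methods of the study name another background. By those methods the livers of each genotype came from several litters, fewer than the livers. Some livers thus shared a litter, the labels do not say which, and the p-values take no account of it.

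Collagens are extracellular matrix proteins in which 3 chains wind into a triple helix, and each chain is the product of its own gene. Fibril-forming collagens give tissue its tensile strength, type IV collagens build the sheet-like network of basement membranes, and the remaining families bind to fibrils, form beaded filaments or stay anchored in the cell membrane. In liver the fibril-forming chains are known mainly from stellate cells, portal fibroblasts and the capsule, and their accumulation in the adult organ is the scar of fibrosis.

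Signals are log2 values, a positive difference means a higher level in Ppara-/- livers, and tests are those of limma with p-values adjusted by Benjamini-Hochberg over all 19938 genes at a threshold of 0.05. Ppara itself lay between 9.66 and 9.94 in Ppara-/- livers and between 10.71 and 10.95 in Ppara+/+ livers, a difference of -1.01 (adjusted p = 3.6e-08), in the direction of the labels. Whether its probes reach into the disrupted part of the gene is not known here. The array medians ranged from 6.71 to 6.75. By Xist and the Y-linked genes 5 Ppara-/- fetuses were female and 1 was male, against 3 and 3 among Ppara+/+ fetuses. The 6 lowest animal numbers in the labels belonged to Ppara-/- mice 1 and 2 and Ppara+/+ mice 1 to 4, including every male. The 6 highest belonged to Ppara-/- mice 3 to 6 and Ppara+/+ mice 5 and 6, all female. Fits within either set thus compare few livers, in unequal numbers. The array of Ppara-/- mouse 1 stood apart most, since limma called 12.6% of all genes without it and 7.24% with it. Leaving out any other liver gave 4.27% to 9.92%, the highest without Ppara+/+ mouse 6. The weight that limma gave the array of Ppara-/- mouse 1 was the lowest, at 0.57, with Ppara-/- mouse 3 close, at 0.60.

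No collagen gene passed the test in either direction. Of the 44, 0 were called lower, against 3.82% of all genes, and 0 were called higher, against 3.42% of all genes. Shares this small come to few genes out of 44. The collagens also varied more within genotypes, with a median SD of 0.148 against 0.112 over all genes, and a wider spread makes a call less likely. At an unadjusted p under 0.05 limma marked 1 collagen, Col6a3, whereas 20.9% of all genes passed that mark, and the exact Mann-Whitney test called 0 collagens after adjustment and marked 2 before it. With that rank test 0 genes of the whole array passed the adjustment. The lowest adjusted p of any collagen in limma was 0.16, again that of Col6a3.

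The differences were small as well as uncalled. They ran from -0.13 for Col4a5 to 0.29 for Col12a1, with a median of 0.03 beside 0.01 over all genes. Above 0 lay 33 collagens and below it 11, and of all 19938 genes 10670 lay above. The count of collagens above 0 was 25 with sex as a covariate and 25 without Ppara-/- mouse 1. It was 39 without Ppara-/- mouse 3 and 22 within the 6 highest animal numbers, so the sign counts of the classes below are no firm lean. For 43 of the 44 the whole 95% interval of the difference stayed within a 1.3-fold change either way, which held for 89.9% of all genes, and Col12a1 was the exception. The narrower bound of 1.2-fold held for 35 collagens and for 72.3% of all genes. Only 16 of the 44 collagens lay over the 50th percentile of mean signal of all genes. The intervals bound changes of array signal, and how fully signal follows transcript at low levels was not tested. In none of the 44 did all livers of one genotype lie beyond all livers of the other, a separation seen in 3.59% of all genes. These were extracts of whole liver, in which fewer cells of a type and less RNA per cell cannot be told apart.

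**Figure D1:**
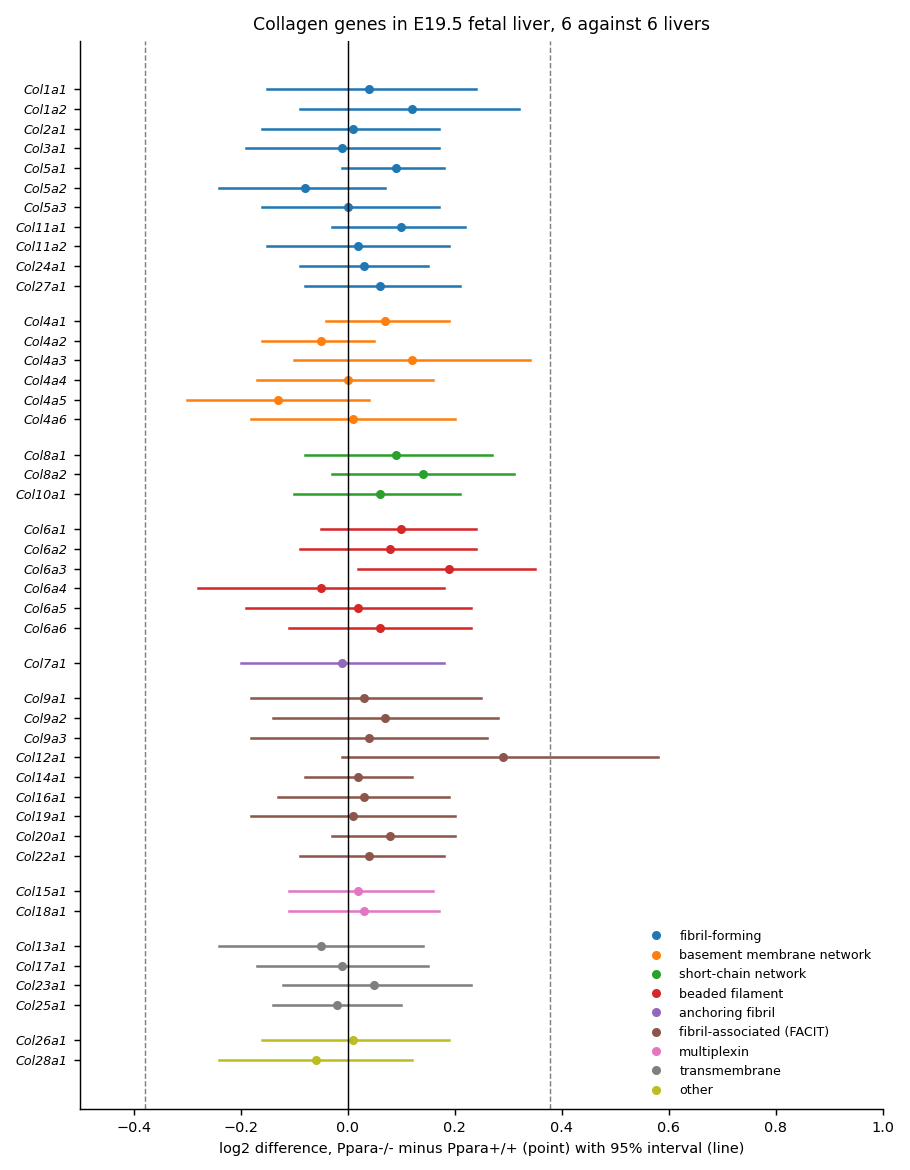
Difference of each of the 44 collagen genes, Ppara-/- minus Ppara+/+ on the log2 scale (horizontal axis), with its 95% interval from limma as a line and 6 livers per genotype, colored by collagen class. Dashed lines mark 1.3-fold either way. All points lie between -0.13 and 0.29, and the interval of Col12a1 is the only one to leave the 1.3-fold bounds.

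Of the 44 collagens, 40 had a mean signal over 5.73, the level under which 95% of 1027 olfactory receptor genes fell, a set that liver is not known to transcribe. Over all genes 70.8% passed this level. The 4 collagens under it were Col4a6, Col10a1, Col19a1 and Col28a1. Col10a1, the collagen of hypertrophic cartilage, had a mean of 5.15 ± 0.10 in Ppara-/- and 5.10 ± 0.16 in Ppara+/+ livers (SD, n = 6 each), and values at this level give no sign of a transcript. Passing the level does not by itself show that a gene was transcribed, since Col2a1, the main collagen of cartilage, also passed, at 7.10 ± 0.14 and 7.10 ± 0.15.

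Among the 11 fibril-forming collagens, which assemble into the banded fibrils of connective tissue, 9 differences lay above 0, and the median was 0.03. Col1a1, the major chain of type I collagen, read 8.96, 8.79, 8.81, 9.14, 8.91 and 8.85 in Ppara-/- mice 1 to 6 and 8.63, 9.15, 9.02, 8.92, 8.61 and 8.87 in Ppara+/+ mice 1 to 6. The Ppara-/- livers lay inside the range of the Ppara+/+ livers, in which mice 1 and 5 were low and mouse 2 was high. The difference was 0.04 (95% interval -0.15 to 0.24, adjusted p = 0.85).

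Col1a2, the partner chain of type I collagen, read 8.43, 8.26, 8.43, 8.58, 8.35 and 8.44 in Ppara-/- livers and 8.07, 8.60, 8.48, 8.33, 7.97 and 8.34 in Ppara+/+ livers. The same 2 Ppara+/+ mice, 1 and 5, were lowest and mouse 2 was again the highest of its group. The difference of 0.12 (-0.09 to 0.32, adjusted p = 0.56) was the largest among fibril-forming collagens. Col3a1, which forms the reticular fibers of the liver, had a difference of -0.01 (-0.19 to 0.17), with livers spanning 7.79 to 8.17 for Ppara-/- and 7.66 to 8.17 for Ppara+/+. Col5a1, a chain of the type V collagen that starts new fibrils, varied least between livers of one genotype, with an SD of 0.0633, a spread wider than in 9.72% of all genes, and its difference was 0.09 (-0.01 to 0.18, adjusted p = 0.31). The remaining 7 lay between -0.08 (Col5a2) and 0.10 (Col11a1), with Col24a1 at 0.03 and Col27a1 at 0.06.

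**Figure D2:**
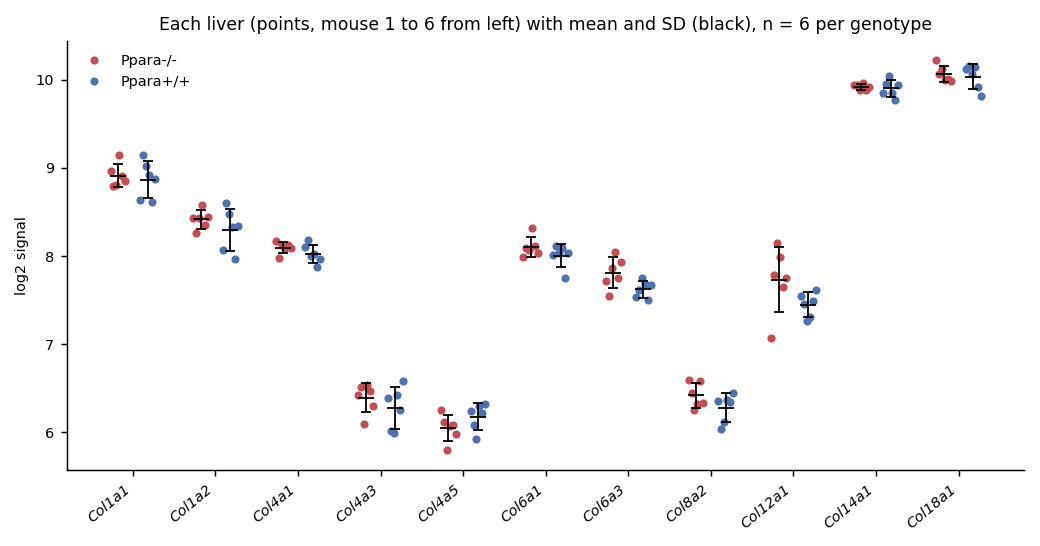
Log2 signal (vertical axis) of the collagens whose livers are given one by one, with a point for each of the 6 Ppara-/- and 6 Ppara+/+ livers and the mean and SD of each group in black. The genotypes overlap for every gene, and Ppara-/- mouse 1 lies under all other livers for Col12a1, at 7.07.

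The 6 chains of type IV collagen form the network of basement membranes, and 3 of their differences lay above 0 and 3 below, with a median of 0.00. Col4a1 and Col4a2, which pair in nearly all basement membranes, are neighbors that start back to back. Their start sites on chromosome 8 lay 21 bases apart on opposite strands, at 11312805 for Col4a2 and 11312826 for Col4a1. By these coordinates each start site lay just inside the other gene. The promoter windows, 250 bases before to 50 after each start site in RefSeq on GRCm38.p6, shared 78 bases. They are shown because they overlap, with the shared bases in capitals, which run from before each start site through the 50 bases after it. Col4a2 is at chr8:11312555-11312854 on the plus strand and Col4a1 at chr8:11312777-11313076 on the minus strand.
Col4a2: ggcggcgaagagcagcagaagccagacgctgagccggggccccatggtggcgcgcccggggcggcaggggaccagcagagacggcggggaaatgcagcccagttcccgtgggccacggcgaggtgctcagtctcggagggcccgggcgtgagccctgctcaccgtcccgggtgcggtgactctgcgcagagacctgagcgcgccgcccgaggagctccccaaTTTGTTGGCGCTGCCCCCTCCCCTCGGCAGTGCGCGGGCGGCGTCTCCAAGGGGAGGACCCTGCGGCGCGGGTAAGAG
Col4a1: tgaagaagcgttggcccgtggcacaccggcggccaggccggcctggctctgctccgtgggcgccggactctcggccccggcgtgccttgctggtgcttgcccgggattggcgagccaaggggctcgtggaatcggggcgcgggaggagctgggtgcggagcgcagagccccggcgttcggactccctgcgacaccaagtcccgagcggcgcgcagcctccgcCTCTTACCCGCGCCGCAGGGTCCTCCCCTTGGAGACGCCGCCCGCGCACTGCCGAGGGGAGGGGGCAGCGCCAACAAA

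Col4a1 read 8.17, 7.98, 8.13, 8.09, 8.12 and 8.09 in Ppara-/- livers and 8.10, 8.18, 8.00, 8.02, 7.88 and 7.97 in Ppara+/+ livers. All but 1 of the Ppara-/- livers lay at or above 8.09 and 2 of the Ppara+/+ livers did. The difference was 0.07 (-0.04 to 0.19, adjusted p = 0.48), while that of Col4a2 was -0.05 (-0.16 to 0.05, adjusted p = 0.64), and neither passed the test. Col4a3 and Col4a4, chains of specialized membranes such as that of the kidney glomerulus, differed by 0.12 (-0.10 to 0.34) and -0.00 (-0.17 to 0.16).

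Col4a3 read 6.43, 6.52, 6.10, 6.54, 6.47 and 6.30 in Ppara-/- mice 1 to 6 and 6.39, 6.02, 5.99, 6.43, 6.25 and 6.58 in Ppara+/+ mice 1 to 6, and the groups overlapped. Col4a5, the X-linked chain that joins them, read 6.25, 6.12, 5.80, 6.07, 6.08 and 5.98 in Ppara-/- livers and 6.24, 6.08, 5.92, 6.30, 6.22 and 6.32 in Ppara+/+ livers. Ppara-/- mouse 3 was the lowest of all 12 and the rest of the groups overlapped. The difference of -0.13 (-0.30 to 0.04, adjusted p = 0.42) was the most negative of any collagen, and it was 0.05 within the 6 lowest animal numbers. Col4a5 and its X-linked neighbor Col4a6 also run in opposite directions, with start sites 1343 bases apart and 0 shared bases in the windows.

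Type VI collagen forms beaded filaments around cells and beside basement membranes, and 5 of its 6 chains had differences above 0, with a median of 0.07. Col6a3, the long chain of the common trimer, read 7.72, 7.55, 7.86, 8.05, 7.75 and 7.93 in Ppara-/- livers and 7.53, 7.62, 7.75, 7.68, 7.50 and 7.67 in Ppara+/+ livers. Of the Ppara-/- livers 4 lay above the highest Ppara+/+ liver, 1 of them by less than the printed precision, and mouse 2 lay near the bottom of the Ppara+/+ range. The difference was 0.19 (0.02 to 0.35, unadjusted p = 0.027, adjusted p = 0.16). Over 25 other limma settings, those with 1 value per gene and at least 11 of the 12 livers, the adjusted p ranged from 0.065 to 0.35. In the smaller fits it was 0.98 within the 6 lowest animal numbers, where the difference was -0.01, and 0.21 within the 6 highest, where it was 0.31.

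Col6a1, a shorter chain of the same trimer, read 7.99, 8.09, 8.07, 8.32, 8.11 and 8.04 in Ppara-/- livers and 8.01, 8.11, 8.04, 8.09, 7.75 and 8.03 in Ppara+/+ livers. Apart from Ppara-/- mouse 4, which was high, and Ppara+/+ mouse 5, which was low, all livers fell between 7.99 and 8.11. The difference was 0.10 (-0.05 to 0.24, adjusted p = 0.46). Col6a2, the second short chain, differed by 0.08 (-0.09 to 0.24), and Col6a4, Col6a5 and Col6a6, chains of less common trimers, by -0.05, 0.02 and 0.06.

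The 9 fibril-associated collagens, which sit on the surface of fibrils and are called FACIT, all had differences above 0, with a median of 0.04. Col12a1, which binds type I fibrils and is known from tissue under load, had both the largest difference and the widest spread. It read 7.07, 7.79, 8.15, 7.99, 7.65 and 7.75 in Ppara-/- livers and 7.55, 7.46, 7.26, 7.31, 7.49 and 7.62 in Ppara+/+ livers. In 5 Ppara-/- livers it lay above every Ppara+/+ liver, and in mouse 1 it lay below every one. The means were 7.73 ± 0.37 and 7.45 ± 0.14 (SD, n = 6 each), a difference of 0.29 (SE 0.14, 95% interval -0.01 to 0.58, 1.22-fold, adjusted p = 0.26).

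The call on Col12a1 turned on Ppara-/- mouse 1. Without that liver the Ppara-/- mean was 7.87 ± 0.20 (n = 5), the difference 0.42 (SE 0.09, 1.34-fold), and the adjusted p in limma 0.0083. With the animals split by the numbers in their labels the difference was 0.04 within the 6 lowest numbers (adjusted p = 0.95). It was 0.33 within the 6 highest (adjusted p = 0.39), and with the split as a block 0.18 (adjusted p = 0.54). Of the Ppara-/- livers the lowest numbers held only mice 1 and 2, so the 0.04 draws on mouse 1 again. The SD of Col12a1 within genotypes, 0.282, was wider than that of 98.0% of all genes.

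Col14a1, a relative of Col12a1 that binds fibrils through the proteoglycan decorin, varied little between livers. It read 9.94, 9.94, 9.88, 9.96, 9.88 and 9.92 in Ppara-/- livers and 9.85, 9.95, 10.04, 9.85, 9.77 and 9.94 in Ppara+/+ livers. All 6 Ppara-/- livers lay within the Ppara+/+ range, and the difference was 0.02 (-0.08 to 0.12, adjusted p = 0.88). The other FACIT members, Col9a1, Col9a2, Col9a3, Col16a1, Col19a1, Col20a1 and Col22a1, differed by between 0.01 (Col19a1) and 0.08 (Col20a1).

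Col18a1, a multiplexin of basement membranes whose end fragment is endostatin, read 10.22, 10.06, 10.12, 10.00, 10.01 and 9.99 in Ppara-/- livers and 10.12, 10.16, 10.06, 10.14, 9.92 and 9.81 in Ppara+/+ livers. Hepatocytes are known to make it, and the genotypes overlapped over most of their range. The difference was 0.03 (-0.11 to 0.17, adjusted p = 0.85), and that of Col15a1, the other multiplexin, 0.02. Col8a2, a short-chain collagen of network-forming type, read 6.59, 6.45, 6.26, 6.32, 6.58 and 6.33 in Ppara-/- livers and 6.36, 6.04, 6.12, 6.37, 6.35 and 6.45 in Ppara+/+ livers. In 3 Ppara-/- livers it exceeded every Ppara+/+ liver, 1 of them by less than the printed precision, and the difference was 0.14 (-0.03 to 0.31, adjusted p = 0.35). The anchoring fibril collagen Col7a1 differed by -0.01, the 4 membrane-bound collagens (Col13a1, Col17a1, Col23a1 and Col25a1) by -0.05 to 0.05, and Col26a1 and Col28a1 by 0.01 and -0.06.

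Most chains of one trimer or fibril varied together from liver to liver, and Pearson's r passed the threshold in 6 of 8 pairs. Collagens at large shared such shifts too, with 7 above their mean over all livers in Ppara-/- mouse 3 and 40 in Ppara-/- mouse 4. Collagens that share no trimer or fibril were not paired for comparison. Whether partner chains varied together more closely than other collagens was therefore not tested. For the 8 pairs, chosen from textbook assembly, the deviation of each liver from its genotype mean was compared over all 12 livers, with 100000 permutations within genotype and p-values adjusted over the 8 pairs. Col1a1 and Col1a2 had r = 0.94 and rho = 0.93 (permutation p = 0.00027 and 0.00057, adjusted 0.00072 and 0.0015), and r was 0.89 without the 2 livers farthest from the median of Col1a1. Col1a1 and Col3a1, chains of different types that share fibrils, had r = 0.91 and rho = 0.94 (permutation p = 0.00026 each, adjusted 0.00072 and 0.0015), and 0.89 without the 2. Within the 6 Ppara-/- livers r was 0.79 and 0.86 for these pairs, and within the 6 Ppara+/+ livers 0.99 and 0.93.

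Col6a2 and Col6a3 had r = 0.84 and rho = 0.90 (adjusted permutation p = 0.00032 and 0.0015), with 0.83 without the farthest 2 livers. Col6a1 and Col6a2 had r = 0.81 and rho = 0.70 (0.013 and 0.022), and r fell to 0.47 without the 2 livers, so that this relation rested in part on them. The back-to-back genes Col4a1 and Col4a2 had r = 0.66 and rho = 0.64 (adjusted permutation p = 0.051 and 0.047), and r was 0.44 without the 2 livers. Col5a1 and Col5a2 had r = 0.56 and rho = 0.64 (0.066 and 0.027), with 0.47 without the 2.

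The remaining pairs were of low signal, with Col4a6 under the level of the olfactory receptor genes. Col4a3 and Col4a4 had r = 0.78 and rho = 0.85 (adjusted permutation p = 0.013 and 0.0072), and Col4a5 and Col4a6 r = 0.81 and rho = 0.71 (0.005 and 0.027). Without the farthest 2 livers r was 0.66 and 0.58. After renewed quantile normalization, chosen after the data were seen, r was 0.63 and 0.60 for these pairs and neither passed the threshold (adjusted permutation p = 0.064 each). The pairs of types I, III and VI kept r between 0.83 and 0.94 under it, and Col4a1 with Col4a2 reached 0.71 (adjusted permutation p = 0.032).

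**Figure D3:**
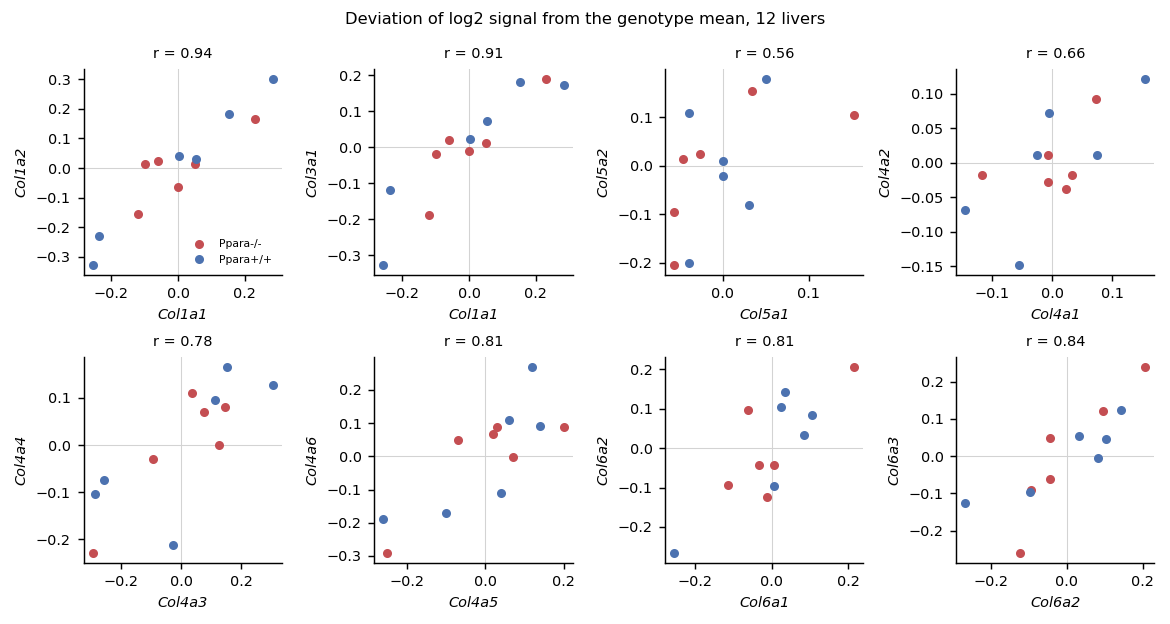
Deviation of each liver from its genotype mean, in log2 units, for the first gene (horizontal axis) against the second (vertical axis) of 8 chain pairs, with 6 Ppara-/- and 6 Ppara+/+ livers as points. Points run along a rising line most closely for Col1a1 with Col1a2, where r was 0.94, and least closely for Col5a1 with Col5a2, where it was 0.56.

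The genes of type I and III collagen lie on different chromosomes, and the windows at hand for them, those of Col1a2 and Col3a1, are shown because their transcripts each followed Col1a1. Capitals mark a CCAAT or TATAAA box on either strand, Col1a2 at chr6:4505368-4505667 and Col3a1 at chr1:45311288-45311587, both on the plus strand of GRCm38.p6, and neither window held a nuclear receptor site of the kind counted next.
Col1a2: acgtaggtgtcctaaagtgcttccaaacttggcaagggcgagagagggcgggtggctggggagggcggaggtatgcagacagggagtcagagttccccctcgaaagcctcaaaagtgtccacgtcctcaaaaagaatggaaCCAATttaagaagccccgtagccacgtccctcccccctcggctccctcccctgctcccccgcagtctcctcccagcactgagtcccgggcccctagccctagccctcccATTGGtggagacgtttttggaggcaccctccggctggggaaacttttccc
Col3a1: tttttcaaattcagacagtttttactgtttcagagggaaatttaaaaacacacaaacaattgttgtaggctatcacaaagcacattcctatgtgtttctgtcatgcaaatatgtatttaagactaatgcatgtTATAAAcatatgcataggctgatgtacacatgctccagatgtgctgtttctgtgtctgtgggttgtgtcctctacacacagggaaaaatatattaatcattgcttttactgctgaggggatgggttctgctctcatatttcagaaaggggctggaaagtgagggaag

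Such windows were at hand for 35 of the 44 collagens. A gene with several windows counted once, if any of them held the letters. CCAAT, read on both strands, was in 13 of these collagens (37.1%) and in 41.1% of the 27025 genes with a window, and TATAAA in 5 (14.3%) against 15.7%. AGGTCA, the letters of a single nuclear receptor site, was in 8 (22.9%) against 18.1%. The direct repeat of AGGTCA with 1 free base between, a strict spelling of the arrangement known for PPARα with its partner RXR, was in 0 collagens and in 0.05% of all genes with a window. A match is a description of letters, and its absence says only that these letters were not in this window.

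Across all 44 genes the livers also differed in their overall collagen level. The median deviation of the 44 from their means over all 12 livers was 0.10, 0.00, -0.19, 0.13, 0.03 and -0.03 in Ppara-/- mice 1 to 6 and 0.05, -0.07, -0.13, 0.08, -0.07 and 0.08 in Ppara+/+ mice 1 to 6. Ppara-/- mouse 3 had 7 of the 44 above their mean and held the lowest value of all livers for 16 of them, whereas Ppara-/- mouse 4 had 40 above and held the highest value for 12. Col12a1 was the 1 collagen that was highest in mouse 3. The lower quartile of the signal of all genes moved with these medians, being 5.51, 5.46, 5.34, 5.53, 5.48 and 5.43 in the Ppara-/- arrays and 5.51, 5.39, 5.36, 5.50, 5.43 and 5.51 in the Ppara+/+ arrays. Its part in the collagen deviations was not tested.

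**Figure D4:**
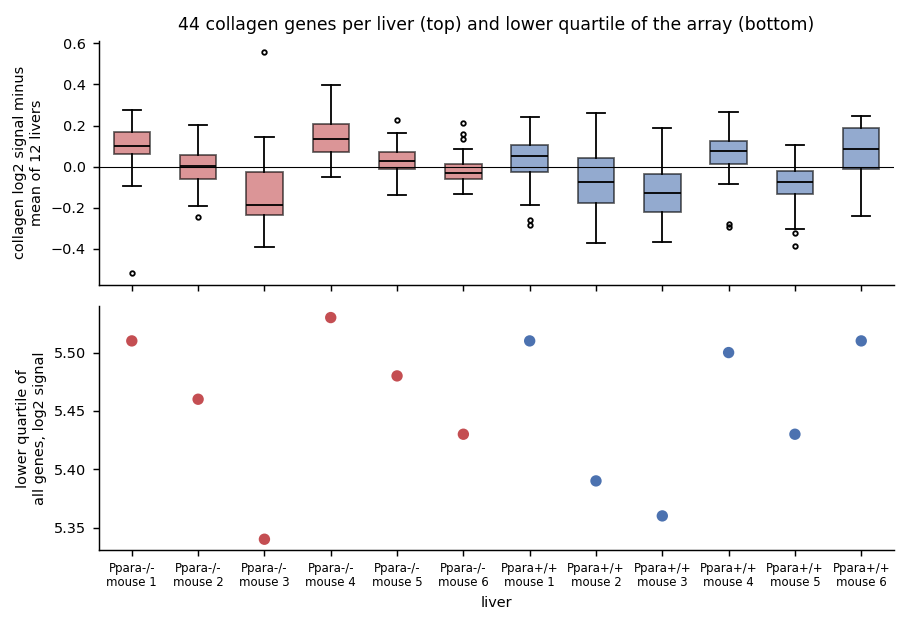
Top, deviation of the 44 collagen genes from their mean over 12 livers, in log2 units (vertical axis), as a box per liver from the lower to the upper quartile with the median as a line, whiskers to the last gene within 1.5 box lengths and genes beyond them as open points. Bottom, the lower quartile of the log2 signal of all genes on the same array. The medians run from -0.19 in Ppara-/- mouse 3 to 0.13 in Ppara-/- mouse 4, and both genotypes have livers above and below 0.

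Around the collagens, some genes that modify, process or anchor them did change. Of 119 measured genes in 7 matrix lists, chosen by function, 3 were called lower (2.52%, against 3.82% of all genes) and 9 higher (7.56%, against 3.42%), so that the share called lower was under the background and the share called higher was over it, and no test compared them. In the list of collagen modification and folding 2 of 22 rose (9.09%, against 3.42% of all genes) and 0 fell, with a median difference of 0.06. Tmem38b, an ion channel of the endoplasmic reticulum needed for collagen folding, rose by 0.23 (adjusted p = 0.02), and P3h2, a prolyl 3-hydroxylase of basement membrane collagens, by 0.28 (adjusted p = 0.025). Tmem38b lost its call in 5 of the 25 settings and P3h2 in 9, both of them with the animal number block. P4ha2, a prolyl 4-hydroxylase subunit, differed by 0.42 and P3h4, a partner of the lysyl hydroxylases, by -0.23, neither of which passed (adjusted p = 0.06 and 0.055).

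As with Col12a1, Ppara-/- mouse 1 set the count in this list. Plod2, the lysyl hydroxylase of fibril cross-links, read 7.37, 9.01, 8.91, 9.50, 9.19 and 9.22 in Ppara-/- livers and 7.59, 8.36, 8.50, 8.34, 7.73 and 8.55 in Ppara+/+ livers, with mouse 1 below all Ppara+/+ livers and the other 5 above them. Its difference was 0.69 (adjusted p = 0.19) with all livers and 0.99 (adjusted p = 0.002) without mouse 1. P4ha1, the second prolyl 4-hydroxylase subunit, differed by 0.40 (adjusted p = 0.085) and without that liver by 0.53 (adjusted p = 0.0018). Without mouse 1, 6 of the 22 genes were called higher, P4ha1, P4ha2, P3h2, Plod2, Plod3 and Tmem38b, and across the removal of each liver in turn the number ran from 0 to 6. Over all 19938 genes, leaving out mouse 1 raised the number called higher from 682 to 1374. Plod2, Plod3 and P4ha1 were picked out after their values were seen. Serpinh1, the collagen chaperone HSP47, differed by 0.04 (adjusted p = 0.75).

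Among 13 genes of propeptide processing and cross-linking, 2 fell (15.4%, against 3.82% of all genes) and 0 rose, with a median of -0.01. Pcolce2, which enhances the cleavage of procollagen ends, read 9.64, 9.63, 9.49, 9.04, 9.43 and 9.42 in Ppara-/- livers and 10.01, 9.96, 10.18, 10.07, 9.88 and 10.02 in Ppara+/+ livers. The groups did not overlap, every Ppara-/- liver being the lower, and the difference was -0.58 (-0.77 to -0.39, 1.49-fold, adjusted p = 0.0013). Bmp1, the protease that makes this cleavage, read 10.67, 10.48, 10.52, 10.37, 10.39 and 10.48 in Ppara-/- livers and 10.86, 10.93, 10.96, 10.79, 10.74 and 10.67 in Ppara+/+ livers. In 5 Ppara-/- livers it was under every Ppara+/+ liver, the groups met at 10.67, and the difference was -0.34 (-0.47 to -0.20, adjusted p = 0.0048). Both were called in each of the 25 settings. Within the 6 lowest and the 6 highest animal numbers neither was, with differences of -0.42 and -0.60 for Pcolce2 (adjusted p = 0.062 and 0.077) and -0.31 and -0.26 for Bmp1 (adjusted p = 0.19 and 0.17).

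Among 18 partners of basement membrane collagen, 3 rose (16.7%, against 3.42% of all genes) and 0 fell, with a median of 0.03. Nid1, nidogen 1, which links laminin to type IV collagen, read 10.29, 10.50, 10.45, 10.58, 10.51 and 10.50 in Ppara-/- livers and 10.07, 10.20, 10.23, 10.09, 10.11 and 10.04 in Ppara+/+ livers, with no overlap, and the difference was 0.35 (0.24 to 0.47, 1.28-fold, adjusted p = 0.0012). Lama1, a laminin chain, rose by 0.42 (adjusted p = 0.0041) and Smoc1, a matricellular protein, by 0.17 (adjusted p = 0.032). Nid1 and Lama1 were called in each of the 25 settings and Smoc1 lost its call in 11 of them. Within the 6 highest animal numbers Nid1 and Lama1 were called as well (adjusted p = 0.025 and 0.032), and within the 6 lowest neither was (0.33 and 0.43).

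Of 10 collagen receptors 1 fell, where 3.82% of all genes did, and 0 rose, with a median of 0.03. Itga2, the integrin chain of a collagen receptor, was lower in all 6 Ppara-/- livers than in any Ppara+/+ liver, and it fell by 0.27 (adjusted p = 0.024), and lost its call in 5 of 25 settings. The discoidin receptors Ddr1 and Ddr2, kinases that collagen activates, differed by -0.01 and 0.02. Of 17 small proteoglycans and fibril partners limma called 0, with 0 at an unadjusted p under 0.05 and a median of 0.03. Of 18 collagenases, gelatinases and inhibitors it called 0, with 4 at an unadjusted p under 0.05 and a median of -0.01. The unadjusted mark was passed by 20.9% of all genes. Decorin (Dcn), the most studied of the proteoglycans, differed by -0.09 (adjusted p = 0.38).

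Of 21 genes of TGF-beta and PDGF signaling, pathways that drive collagen production in stellate cells, 4 rose (19.0%, against 3.42% of all genes) and 0 fell, with a median of 0.03. Directions were mixed, with 8 of the 21 differences below 0 and 13 above. Pdgfa, a growth factor, rose by 0.22 (adjusted p = 0.014), Smad4, the shared mediator of TGF-beta signals, by 0.34 (adjusted p = 0.015), Bambi, a decoy receptor, by 0.22 (adjusted p = 0.021) and Tgfbr3, a co-receptor, by 0.18 (adjusted p = 0.031). Pdgfa and Smad4 kept the call in all 25 settings, Bambi lost it in 4 and Tgfbr3 in 12. None of the 4 was called within the 6 lowest or the 6 highest animal numbers, where the lowest adjusted p was 0.15, for Smad4. The rank test called 0 of the 119 genes, as it did of the whole array.

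**Figure D5:**
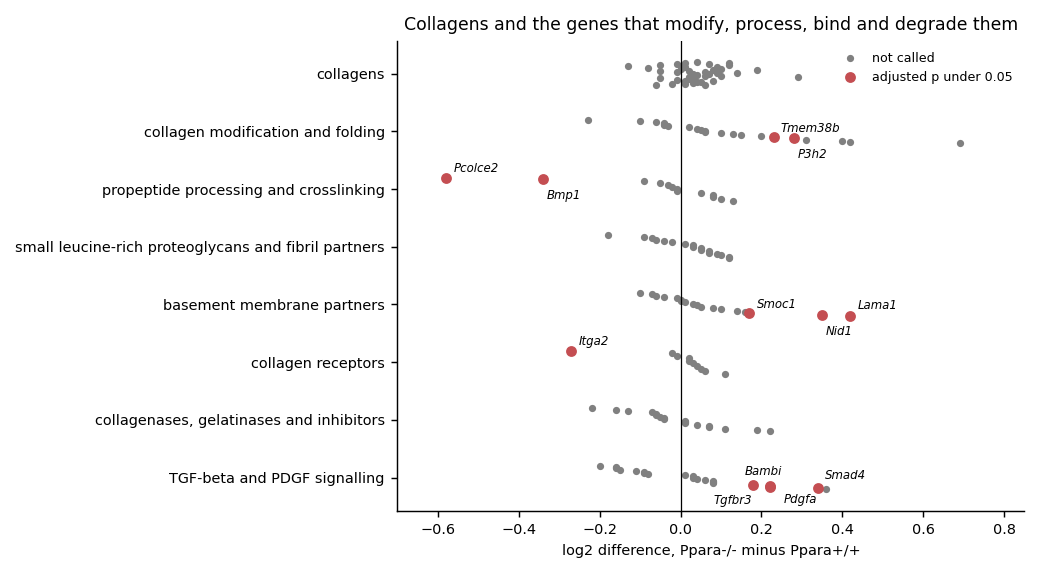
Differences, Ppara-/- minus Ppara+/+ on the log2 scale (horizontal axis), of the collagens and of the measured members of the 7 matrix lists, with a small gray point per gene and a larger red point for genes called at an adjusted p under 0.05. The collagens hold 0 red points, and those of the other lists run from -0.58 for Pcolce2 to 0.42 for Lama1.

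The cell types that could carry collagen were read from marker lists. Of 13 markers of hepatic stellate cells 1 fell, Des, the filament protein desmin, by 0.39 (adjusted p = 0.018), and 1 rose, Reln, the secreted protein reelin, by 0.16 (adjusted p = 0.034). Each gene is 7.69% of the list, where 3.82% of all genes fell and 3.42% rose. Des kept its call in all 25 settings and Reln lost it in 13. The list had 8 of 13 differences below 0 and a median of -0.04, from -0.51 for Rgs5, a pericyte gene (adjusted p = 0.17), to that of Reln, with Hgf, a growth factor for hepatocytes, at -0.22 (adjusted p = 0.17), Pdgfrb, the PDGF receptor, at -0.04 and Lrat, the enzyme of vitamin A storage, at 0.08. The mean level of the list ranged from 8.00 to 8.06 over Ppara-/- and from 7.98 to 8.20 over Ppara+/+ livers. Among 12 markers of portal fibroblasts and mesothelium Entpd2 rose by 0.76 (adjusted p = 0.0017) and Upk3b fell by 0.31 (adjusted p = 0.03), each 8.33% of the list. Of the 12 differences 10 lay below 0, with a median of -0.04, and 6 had an unadjusted p under 0.05 in limma. Msln and Upk1b were lower by 0.30 and 0.21 without passing (adjusted p = 0.071 and 0.13). Entpd2 was called in all 25 settings and Upk3b lost its call in 9. The list means were 7.21 to 7.50 over Ppara-/- and 7.25 to 7.51 over Ppara+/+ livers. Of 10 smooth muscle, 15 endothelial and 6 bile duct markers limma called 0, with 1, 5 and 0 at an unadjusted p under 0.05. That mark was passed by 20.9% of all genes. Without Ppara-/- mouse 1 the endothelial list had 3 called lower and 1 higher, where 1147 and 1374 of all 19938 genes were.

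Of 14 markers of skeletal muscle and cartilage, tissues that could be carried over in dissection, 7 were over the level of the olfactory receptor genes. One rose (7.14%, against 3.42% of all genes), Comp, by 0.32 (adjusted p = 0.0068). The list mean spanned 5.74 to 5.88 over Ppara-/- and 5.64 to 6.22 over Ppara+/+ arrays, and Ckm, a muscle enzyme, stood out in Ppara+/+ mouse 3, at 7.41. The 12 hepatocyte markers were all over that level, with list means between 12.70 and 12.93.

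Of the hepatocyte markers Tat, the enzyme tyrosine aminotransferase, fell by 1.61 (adjusted p = 0.031) and Dlk1, a hepatoblast protein, rose by 0.42 (adjusted p = 0.033), and each lost its call in 11 of the 25 settings. Each gene is 8.33% of the list, where 3.82% of all genes fell and 3.42% rose. Tat read 11.72 in Ppara-/- mouse 1, 9.17 to 10.37 in the other Ppara-/- livers and 10.34 to 12.33 in Ppara+/+ livers. The same liver thus lay among the Ppara+/+ values for Tat and below them for Col12a1 and Plod2. Of 11 macrophage markers 2 rose, Csf1r, the receptor of a macrophage growth factor, by 0.23 (adjusted p = 0.0096) and Cd5l, a secreted macrophage protein, by 0.40 (adjusted p = 0.041), where 3.42% of all genes rose. Csf1r was called in all 25 settings and Cd5l lost its call in 12. The list was mixed, with 5 of 11 differences below 0 and a median of 0.04. Cd68 differed by 0.20 and Vsig4 by -0.25, and neither passed (adjusted p = 0.13 and 0.15). Of 11 erythroid markers limma called 0, with 2 at an unadjusted p under 0.05, which 20.9% of all genes reached. The part of these cells in the collagen and matrix values was not tested.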

How the data were processed

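The authors hybridized RNA of 12 fetal livers, kept where the RNA integrity number exceeded a set limit, to Affymetrix Mouse Gene 1.0 ST arrays, and deposited log2 values made with RMA, which corrects background, normalizes between arrays by quantiles and summarises probes. No source used here names the RMA version or genome build. The table held 35556 probesets, with values from 1.95 to 13.91, and correlations between arrays ran from 0.9882 to 0.9955, so that none was a copy. Arrays carry no read depth, and their number, 6 per genotype, limits the precision.

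Probesets were named through a platform probe table. It gave 1 symbol for 21789, several for 1621 and none for 12146, and 21698 (99.6%) of the first matched GRCm38.p6 gene IDs. The probeset with the highest mean stood for each of 999 genes with several. Genotypes were compared by the functions lmFit and eBayes (limma 3.58.1, R 4.3.3) without covariates, two-sided and adjusted by Benjamini-Hochberg over 19938 genes. The procedure was tested on simulated data. Exact Mann-Whitney tests were also run in R. Correlations and figures used Python 3.11.15, scipy 1.17.1, pandas 2.3.3 and matplotlib 3.10.9.

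Any collagen could be named. Values of every liver were due for members called, for the 6 with the highest mean and for the 6 with the largest difference, and of each other list up to 4 members with the smallest p were named, plus Ppara. Ckm, Ddr1, Ddr2, Lrat, P4ha1, Pdgfrb, Plod2, Plod3 and Serpinh1 were added after their values were seen. Members, lists and tests were chosen with earlier results of these data known. Some list genes were not analysed here.

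Alternatives were renewed quantile normalization, equal array medians, 3 filters on dim genes, the mean of probesets, every probeset, eBayes with trend and robust settings, array weights, a mouse-number block, covariates for sex, erythroid score and animal number, a block of the 6 lowest and 6 highest animal numbers and fits within each, the rank test, and leaving out each liver.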

Additional observations from a re-analysis of the deposited data

Results flagged for a closer look

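In 88 groups of 6 livers, 2 for each of the 44 collagens, 3 values lay far from the rest of their group by Dixon's gap test, and chance flags about 1 in 20 such groups. Col4a6, the X-linked type IV chain of low signal, read 5.30 in Ppara-/- mouse 3, against 5.59 to 5.68 in the other Ppara-/- livers. Col6a1, a chain of type VI collagen, read 8.32 in Ppara-/- mouse 4, against 7.99 to 8.11 in the others, and 7.75 in Ppara+/+ mouse 5, against 8.01 to 8.11. Neither gene was called with or without these livers.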

How the results depend on the processing

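The count of collagens called lower was 0 in all 29 other settings, and the count called higher was 0 in 28 of them. Among these, the rank test called 0 genes of the whole array. The fits within the 6 lowest and the 6 highest animal numbers called 0.968% and 1.12% of all genes. A count of 0 collagens in these settings therefore says little. Leaving out each liver gave 0 to 1 called higher, the 1 being Col12a1 without Ppara-/- mouse 1 (0.42). Some uncalled differences changed sign. Within the 6 lowest animal numbers the value was -0.05 for Col1a1, -0.02 for Col1a2, 0.05 for Col4a5, -0.02 for Col6a1 and -0.01 for Col6a3, and within the 6 highest -0.06 for Col4a3 and -0.02 for Col8a2. Leaving out each liver gave -0.01 to 0.10 for Col1a1, -0.01 to 0.05 for Col14a1 and -0.01 to 0.06 for Col18a1. Array weights gave -0.01 for Col18a1. The causes were not tested.

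Of the 119 matrix genes, 3 were called lower and 9 higher. Array weights gave 6 and 17, the fits within the lowest and highest animal numbers 0 and 0 and then 0 and 3, the animal number block 2 and 4, the rank test 0 and 0, and the 50th percentile filter 3 and 14. Leaving out each liver gave 2 to 4 called lower and 4 to 18 called higher, with 18 without Ppara-/- mouse 1, 5 without mouse 2 and 4 without mouse 4. Over all 19938 genes the main fit called 761 lower and 682 higher. Within the lowest animal numbers 163 and 30 were called, and within the highest 106 and 117. Array weights gave 1457 and 1286, the fit without Ppara-/- mouse 1 gave 1147 and 1374, and the 50th percentile filter 1061 and 951 of 9969 genes.

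Mouse numbers do not mark a shared litter in the labels, and livers of one number deviated together with r of 0.02 to 0.39, with 3 of 6 Ppara-/- livers closest to their own number. With the replicate block 0 collagens were called lower and 0 higher, the lowest adjusted p being 0.085 (Col6a3), the matrix genes gave 3 and 11, and 1619 of all genes were called against 1443. Within single genotypes the correlations of chain pairs rest on 6 livers, and those of Col1a1 with Col1a2 and with Col3a1 among Ppara-/- livers, with r of 0.79 and 0.86, did not pass after adjustment of the exact permutation p, nor did Col4a3 with Col4a4, Col4a5 with Col4a6 and Col6a1 with Col6a2 in either genotype.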
